A study of Mus musculus with 6 samples.

Results

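The comparison set 2 kidney libraries of mice carrying the G2 risk variant of human APOL1 (G2APOL1) against 2 libraries of wild-type mice without the transgene (WT), 4 of the 6 libraries of the study. Members were chosen by the genotype and treatment labels, and all expressed genes were described, 14386 of the 54146 in the table. Every mouse underwent unilateral nephrectomy when 6 weeks old and then ate a diet with 4% salt, so surgery and salt were shared by all groups and no unoperated or low-salt kidney was analysed here. The third group, G0APOL1, carried the reference form of the transgene under the same treatment and has 2 libraries, whose values are given beside the comparison. The title calls the transgene inducible and cell-specific. The prefix EC stands before both transgenic genotypes without being spelled out, and the driver, the inducing agent, the strain, the sex and the use of separate animals are not stated in the labels. Errors and p-values therefore measure the spread between these samples. The human transgene was not analysed here.

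APOL1 encodes apolipoprotein L1, a protein of innate defence that kills trypanosomes and that mice do not have. The G2 variant is a small in-frame deletion near the end of the protein, and people who carry risk variants on both chromosomes are more likely to develop kidney disease. In the kidney, the proximal tubule reclaims glucose, amino acids, phosphate and filtered protein through a brush border and breaks down or conjugates many small molecules, while the loop of Henle and collecting duct adjust salt and water and the papilla is covered by urothelium. Bulk RNA from whole tissue mixes all of these, so fewer cells of a type and less RNA per cell cannot be told apart.

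Total expected counts were between 8490396 and 11800932 per library, and 12.6% to 21.1% of them came from the mitochondrial genome, with the highest share in WT replicate 2. The WT pair was the least alike of the 3 pairs, closely followed by G0APOL1. In WT 2644 of the tested genes (18.4%) were more than 2-fold apart between its libraries. In G0APOL1 2606 (18.1%) were, and in G2APOL1 1651 (11.5%). Proximal tubule markers summed to 7329 and 5867 CPM (the normalised read count, scaled to library size) in WT, and to 14196 and 14256 in G2APOL1, and 8 of the 10 were called higher. The 7 endothelial markers summed to 561 and 618 CPM in WT and 282 and 289 in G2APOL1, with 5 called lower. Urothelial markers summed to 92.7 and 84.9 CPM in WT against 10.8 and 17.7 in G2APOL1, and 3 of 5 were called lower. For principal cells of the collecting duct the sums were 2391 and 1527 against 772 and 761, with 2 of 5 called lower. Fibroblast and smooth muscle lists had 3 of 6 markers called lower each, with fibroblast sums of 222 and 520 CPM in WT and 141 and 143 in G2APOL1, and smooth muscle sums of 368 and 446 against 218 and 257. Macrophage sums were 189 and 242 in WT and 116 and 119 in G2APOL1, with 3 of 6 called lower, and red cell sums were 2158 and 1581 against 895 and 642, with 3 of 5 called lower. Podocyte sums overlapped, at 115 and 157 in WT and 143 and 134 in G2APOL1, and so did those of the thick ascending limb, at 3351 and 3451 against 3171 and 3425. With edgeR 0 of the 6 podocyte and 0 of the 4 thick limb markers were called, against 0 and 3 at an unadjusted p under 0.05, 0 and 1 with DESeq2 and 0 and 0 with limma-voom. Among the rest, 1 of 4 markers of the distal convoluted tubule was called higher, and 3 had an unadjusted p under 0.05. Its sums did not overlap, at 212 and 324 CPM in WT, 480 and 436 in G2APOL1 and 782 and 1148 in G0APOL1. For intercalated cells 1 of 5 markers was called in each direction, and the sums overlapped, at 123 and 209 CPM in WT and 124 and 151 in G2APOL1. Fat differed within both groups: adipocyte markers summed to 24.2 and 0.658 CPM in WT and to 0.685 and 134 in G2APOL1. Ly6g, Retnlg and S100a8 of the neutrophil list and Cyp11a1, Cyp11b1 and Cyp21a1 of the adrenal list were at 0 in all 6 libraries, and the 5 lymphocyte markers summed to at most 5.70 CPM. In G0APOL1 the proximal tubule sums were 14930 and 12978 CPM, the endothelial 253 and 215, and the urothelial 9.92 and 20.1. Its principal cell sums were 830 and 506, fibroblast 140 and 120, and smooth muscle 207 and 163. Macrophage sums there were 125 and 132, and red cell sums 980 and 1037. Podocyte sums there were 119 and 83.9, and thick limb sums 4283 and 4396. These marker levels move with many of the gene groups below, and their part in those results was not tested.

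Across all tested genes, 657 were higher and 521 lower in G2APOL1 at an adjusted p under 0.05 with edgeR's quasi-likelihood test, which is 8.19% of genes called, 4.57% higher and 3.62% lower. The called rises had a median log2 fold change of 1.06, with 374 beyond 2-fold and 59 beyond 4-fold. The called falls had a median of -1.53, with 447 beyond 2-fold and 138 beyond 4-fold. Median standard errors were 0.219 for these rises and 0.330 for these falls, and a smaller error lets a smaller change be called. The median over all tested genes was -0.04. Abundant genes were called most often and mainly upwards. Of the 3597 genes with the highest mean count 17.9% were called, 487 higher and 156 lower. Of the 3597 with the lowest, 1.45% were called, 11 higher and 41 lower. The median standard error was 0.205 in the former set and 1.22 in the latter. Protein-coding genes were called at 8.58%, antisense genes at 3.64% and long intergenic RNAs at 3.27%.

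**Figure D1:**
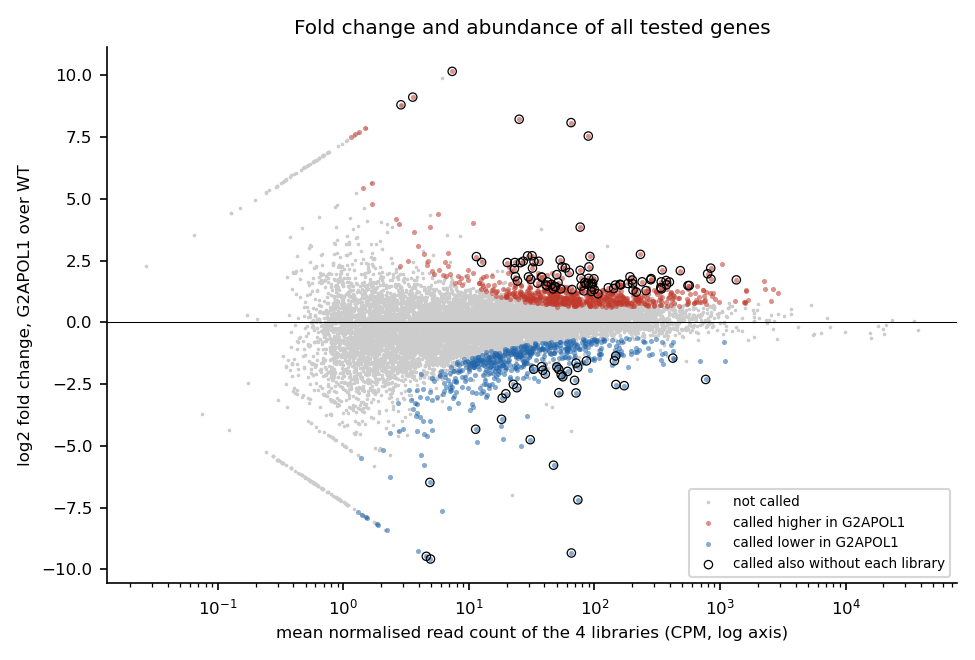
Log2 fold change of G2APOL1 over WT (vertical axis) against the mean normalised read count of the 4 libraries (horizontal log axis) for the 14386 tested genes. Red and blue points are the 657 higher and 521 lower genes, open circles mark the 123 genes that were called also without each library, and the slanted lines of points at the left are genes at 0 in a group, whose fitted fold depends on the prior count.

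Leaving out a single library changed the count of calls. Without G2APOL1 replicate 1 the count was 154, 103 higher and 51 lower, and without G2APOL1 replicate 2 it was 206, with 116 higher and 90 lower. Without WT replicate 2 it was 864. Without WT replicate 1 it rose to 1681, with 1033 higher and 648 lower. A group reduced to 1 library is assumed in these fits to vary like the other groups. Calls that stood in the full fit and without each of the 6 libraries in turn numbered 123 (0.855% of tested genes), 89 higher (0.619%) and 34 lower (0.236%). They are called stable below. Values in brackets below are the log2 fold change of G2APOL1 over WT ± its standard error, with 2 libraries per group, and the adjusted p of edgeR's quasi-likelihood test. Stable genes had a median log2 fold change of 1.72 for the rises and -2.43 for the falls, and all of them exceeded 2-fold. Passing every fit selects for large changes, so these sizes follow in part from the rule. Stable falls often belonged to genes with a near-identical copy elsewhere in the genome: 32.4% of them had such a copy, against 14.6% of the stable rises and 6.10% of all tested genes.

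**Figure D2:**
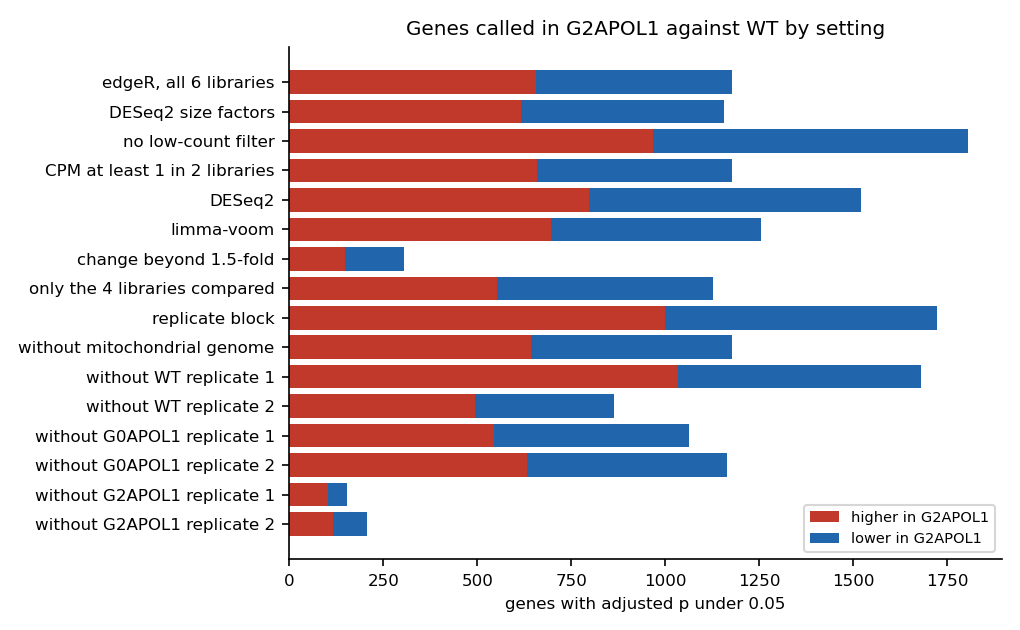
Number of genes with an adjusted p under 0.05 in G2APOL1 against WT (horizontal axis) under each setting, split into higher (red) and lower (blue). The 1178 calls of the fit of all 6 libraries fall to 154 and 206 when a G2APOL1 library is left out and to 305 when the change must exceed 1.5-fold.

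Rises in stable genes without a near-identical copy were led by Dpys, which encodes dihydropyrimidinase, an enzyme of pyrimidine breakdown. Dpys read 0 and 0 CPM in WT, against 18.6 and 18.7 for G0APOL1 and 5.74 and 5.77 for G2APOL1. With 0 counts in WT against 121 in G2APOL1, the rise was at least 36.8-fold over a floor of 3 counts for the group, a bound that covers counting error only. With limma-voom Dpys missed the threshold (adjusted p = 0.051). Angptl7, a secreted angiopoietin-like protein on chromosome 4 (mm10, positions 148495183 to 148500460), had 12.4 and 7.47 CPM in WT, against 15.1 and 29.9 for G0APOL1 and 139.8 and 148 for G2APOL1. Its G2APOL1 libraries were far above the other 4, and the log2 fold change against WT was 3.85 ± 0.34, adjusted p = 0.00013. The glucose transporter Slc2a2, which carries glucose out of proximal tubule cells, read 6.94 and 15.2 CPM in WT, against 50.7 and 68.5 for G0APOL1 and 56.8 and 65.3 for G2APOL1. Both transgenic groups lay above WT without overlap (2.47 ± 0.33, adjusted p = 0.00103; 3.13 without WT replicate 2). Hsd3b3, a 3-beta-hydroxysteroid dehydrogenase, had 8.33 and 6.26 CPM in WT, against 82.1 and 92.8 for G0APOL1 and 41.7 and 36.6 for G2APOL1. Its G2APOL1 values lay between those of WT and G0APOL1 (2.42 ± 0.24, adjusted p = 0.00013). Habp2, a hyaluronan-binding serine protease, read 23.3 and 15.1 CPM in WT, against 87.3 and 100.4 for G0APOL1 and 93.8 and 89.1 for G2APOL1 (2.25 ± 0.23, adjusted p = 0.000141). Clec2h, a C-type lectin, had 8.13 and 8.68 CPM in WT, against 9.5 and 12.2 for G0APOL1 and 39.6 and 35.8 for G2APOL1, so that WT and G0APOL1 were close and G2APOL1 stood above both (2.16 ± 0.30, adjusted p = 0.00121). The succinate receptor Sucnr1 went from 15.3 and 7.69 CPM in WT to 48.9 and 56.5 in G2APOL1 (2.19 ± 0.32, adjusted p = 0.00161; 2.78 without WT replicate 1). Gnpda1, a glucosamine-6-phosphate deaminase, went from 10.2 and 6.81 CPM in WT to 53.1 and 57.4 in G2APOL1 (2.69 ± 0.26, adjusted p = 0.000117), the glycosylation enzyme Alg1 from 7.54 and 5.16 CPM in WT to 33.9 and 34.2 in G2APOL1 (2.42 ± 0.30, adjusted p = 0.000667), and the atypical kinase Mapk4 from 3.07 and 3.19 CPM in WT to 17.1 and 22.5 in G2APOL1 (2.66 ± 0.35, adjusted p = 0.000852). Scn4b, a sodium channel subunit, rose (2.43 ± 0.39, adjusted p = 0.00251; 3.14 without WT replicate 1). Cnbd2, a cyclic nucleotide-binding protein, rose (2.47 ± 0.34, adjusted p = 0.00103; 3.10 without WT replicate 1); 21.5% of its exon bases overlap another gene, and reads of overlapping genes cannot be told apart where strand is not recorded.

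Falls among stable genes began with Tpbgl, a leucine-rich repeat protein related to a trophoblast glycoprotein. Tpbgl read 11.1 and 8.68 CPM in WT, against 2.88 and 1.89 for G0APOL1 and 0 and 0 for G2APOL1. No count was seen in G2APOL1 against 191 in WT, which makes the fall at least 69.7-fold over a floor of 3 counts for the group; 38.6% of its exon bases overlap an antisense gene. Spon1, a secreted matrix protein (spondin 1) on chromosome 7 (mm10, positions 113765998 to 114043370), had 121 and 129 CPM in WT, against 22.9 and 13.6 for G0APOL1 and 16.03 and 18.5 for G2APOL1. The 4 transgenic libraries lay far below both WT libraries, and the log2 fold change of G2APOL1 against WT was -2.86 ± 0.26, adjusted p = 4.74e-05. Akr1c18, which inactivates progesterone, read 293 and 299 CPM in WT, against 172 and 95.4 for G0APOL1 and 54.9 and 44.8 for G2APOL1. WT was highest, G0APOL1 intermediate and G2APOL1 lowest, with no overlap between groups (-2.57 ± 0.26, adjusted p = 0.000141). The membrane mucin Muc20 went from 45.7 and 23.7 CPM in WT to 4.11 and 5.23 in G2APOL1 (-2.89 ± 0.42, adjusted p = 0.00139), and Muc1, a mucin of distal tubule and collecting duct surfaces, from 50.2 and 26.8 CPM in WT to 7.46 and 5.98 in G2APOL1 (-2.51 ± 0.39, adjusted p = 0.00209). Plet1, a surface protein of epithelial progenitors, went from 151 and 81.5 CPM in WT to 19.5 and 26.1 in G2APOL1 (-2.35 ± 0.28, adjusted p = 0.000543), and Tmem30b, a partner of lipid-flipping ATPases, from 113 and 63.9 CPM in WT to 16.1 and 24.6 in G2APOL1 (-2.12 ± 0.31, adjusted p = 0.00145). Serping1, the inhibitor of complement C1, read 228 and 276 CPM in WT, against 76.3 and 59.96 for G0APOL1 and 40.7 and 47.3 for G2APOL1 (-2.52 ± 0.21, adjusted p = 2.34e-05). Of 18 tested Hist genes 3 were lower and 0 higher. Among them the replication histone Hist1h2be read 14.5 and 28.7 CPM in WT, against 6.72 and 4.26 for G0APOL1 and 0.857 and 1.28 for G2APOL1 (-4.33 ± 0.55, adjusted p = 0.00068). Hist1h2bq had 178 counts in WT and 0 in both transgenic groups, a fall of at least 65.0-fold in G2APOL1, but its near-identical neighbour Hist1h2br shares its reads. Summed, the pair read 11.3 and 14.04 CPM in WT, against 20.8 and 0 for G0APOL1 and 0 and 0 for G2APOL1.

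**Figure D3:**
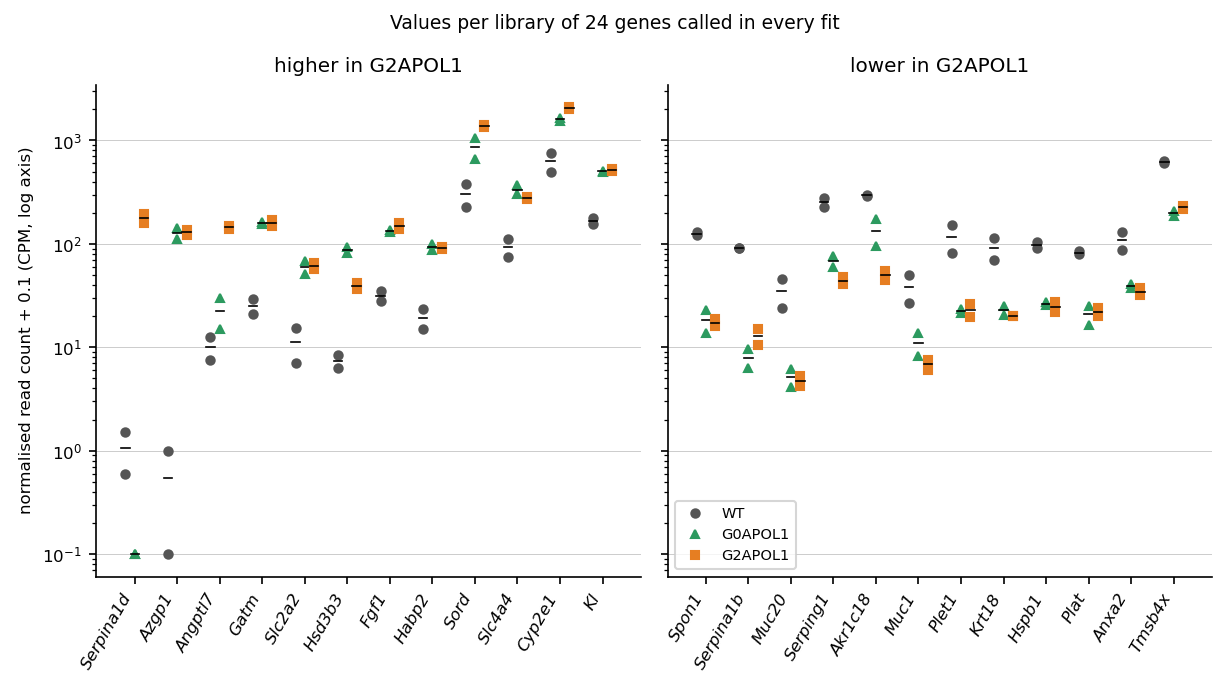
Normalised read counts per library, plus 0.1, on a log axis for 24 stable genes, 12 higher (left) and 12 lower (right) in G2APOL1. Grey circles are WT, green triangles G0APOL1 and orange squares G2APOL1, black bars are group means, and in each gene the WT and G2APOL1 libraries do not overlap.

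Among genes with near-identical copies, the copy that took the reads often differed between the groups while the sum changed less. The pair Serpina1b and Serpina1d, neighbouring genes for alpha-1-antitrypsin on chromosome 12, moved in opposite directions. Serpina1b read 91.7 and 91.1 CPM in WT, against 9.5 and 6.15 for G0APOL1 and 10.5 and 14.8 for G2APOL1 (-2.85 ± 0.28, adjusted p = 0.000106). Serpina1d read 0.496 and 1.43 CPM in WT, against 0 and 0 for G0APOL1 and 195 and 161 for G2APOL1 (7.54 ± 0.37, adjusted p = 2.83e-07; 6.95 without WT replicate 1 and 8.45 without WT replicate 2). Another member, Serpina1a, rose (1.88 ± 0.34, adjusted p = 0.0052; 2.48 without WT replicate 1). Serpina1a missed the threshold without G2APOL1 replicate 1 (1.67 in size, adjusted p = 0.12). Summed over all 6 members, the family had 112 and 105 CPM in WT, against 10.9 and 7.08 for G0APOL1 and 279 and 233 for G2APOL1, a log2 ratio of 1.23 for G2APOL1 over WT. The coding sequences of Serpina1b and Serpina1d are 96.5% identical, with 43 differing bases in 1239. The 90 bases from coding position 1084 to 1173, which cover the reactive-centre loop that baits proteases, hold 10 of those differences. They are shown as the reference annotation GENCODE M21 gives them, with differing bases in capitals, because only reads over such bases separate the copies.
Serpina1b: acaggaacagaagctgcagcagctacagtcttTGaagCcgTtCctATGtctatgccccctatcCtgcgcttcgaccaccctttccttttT
Serpina1d: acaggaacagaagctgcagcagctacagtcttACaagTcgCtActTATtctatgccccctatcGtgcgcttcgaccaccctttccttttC

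Ribosomal protein copies showed the same kind of split. Rps3a1 encodes a protein of the small ribosomal subunit, and Rps3a2 and Rps3a3 are copies of it. Rps3a3 read 144 and 149 CPM in WT, against 1.07 and 0.237 for G0APOL1 and 1.2 and 0.748 for G2APOL1 (-7.19 ± 0.37, adjusted p = 2.83e-07). Rps3a2 fell (-4.75 ± 0.34, adjusted p = 6.43e-06), and the parent Rps3a1 rose (0.66 ± 0.18, adjusted p = 0.0426), from 292 and 300.2 CPM in WT to 495 and 439 in G2APOL1. Their sum with 4 further copies was 496 and 508 CPM in WT, against 444 and 431 for G0APOL1 and 498 and 442 for G2APOL1, with overlapping groups and a log2 ratio of -0.09. Rps3a1 and Rps3a3 are 98.9% identical over 792 coding bases, with 9 differences, of which the stretch from position 171 to 260 holds 2, in capitals.
Rps3a1: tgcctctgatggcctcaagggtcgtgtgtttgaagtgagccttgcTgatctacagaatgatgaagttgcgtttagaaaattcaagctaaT
Rps3a3: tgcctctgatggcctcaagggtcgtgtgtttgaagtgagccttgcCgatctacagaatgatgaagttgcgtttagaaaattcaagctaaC
Rpl29, a protein of the large subunit, read 68.3 and 52.1 CPM in WT, against 73.5 and 73.3 for G0APOL1 and 422 and 388 for G2APOL1 (2.75 ± 0.20, adjusted p = 7.02e-06). Its copy Gm8210 went from 156 and 105 CPM in WT to 0.343 and 0 in G2APOL1 (-9.34 ± 0.47, adjusted p = 2.83e-07; -13.24 without G2APOL1 replicate 1 and -8.52 without G2APOL1 replicate 2). The sum of Rpl29 with its 12 copies was 224 and 158 CPM in WT, against 179.6 and 193 for G0APOL1 and 422 and 388 for G2APOL1, which leaves a log2 ratio of 1.08. Rpl34-ps1, a pseudogene of Rpl34, had 3 counts in WT and 1064 in G2APOL1, a ratio of 324 with a 95% counting interval from 111 to 1573. Rpl34 itself fell (-1.31 ± 0.20, adjusted p = 0.00185), and with all copies summed the ratio was -0.71, on values of 275 and 209 CPM in WT, against 209 and 195 for G0APOL1 and 161 and 134 for G2APOL1. The initiation factor genes Eif3j1 and Eif3j2 also exchanged levels. Eif3j1 read 9.92 and 10.4 CPM in WT, against 33.7 and 20.6 for G0APOL1 and 49.98 and 61.6 for G2APOL1 (2.45 ± 0.29, adjusted p = 0.000473), and Eif3j2 read 38.6 and 27.4 CPM in WT, against 22.7 and 37.1 for G0APOL1 and 4.29 and 3.53 for G2APOL1 (-3.07 ± 0.35, adjusted p = 0.000359). Their sum was 48.4 and 37.7 CPM in WT, against 56.4 and 57.6 for G0APOL1 and 54.2 and 65.1 for G2APOL1, with a log2 ratio of 0.47. Rps3a1 missed the threshold without WT replicate 1 (0.64 in size, adjusted p = 0.0576). Rps3a1 missed the threshold without G0APOL1 replicate 1 (0.66 in size, adjusted p = 0.065). Rps3a1 missed the threshold without G2APOL1 replicate 1 (0.58 in size, adjusted p = 0.408). Rps3a1 and Rpl34 missed the threshold without G2APOL1 replicate 2 (0.74 to 1.18 in size, adjusted p = 0.075 to 0.218). Rps3a1 also missed it with DESeq2 size factors (adjusted p = 0.0514) and in a fit of only the 4 libraries compared (adjusted p = 0.061).

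**Figure D4:**
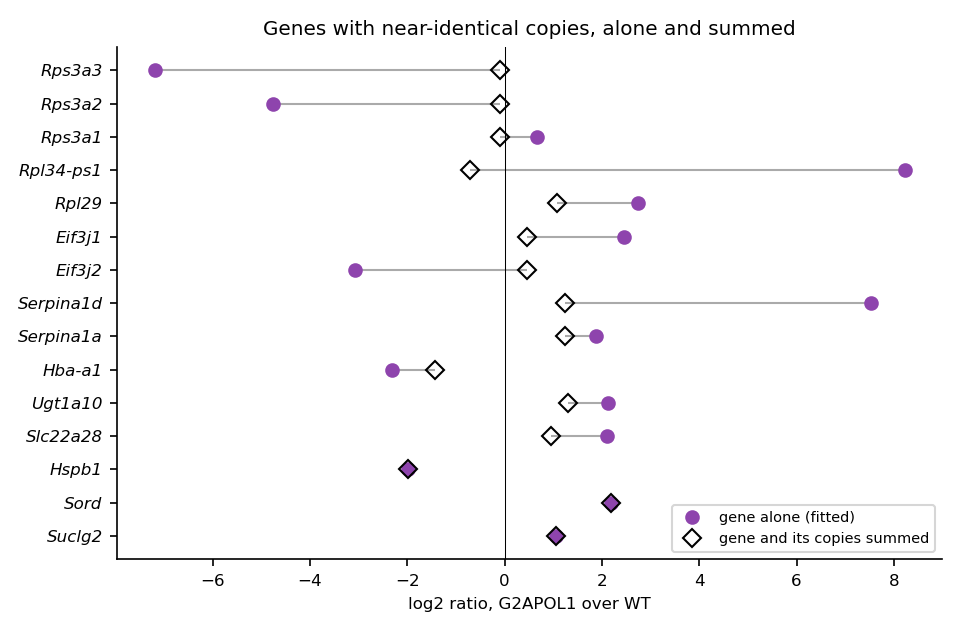
Log2 ratio of G2APOL1 over WT (horizontal axis) for 15 genes with a near-identical copy, each alone as fitted (purple circles) and summed with its copies (open diamonds). Summing brings Rps3a3 from -7.19 to -0.09 and turns Rpl34-ps1 from 8.22 to -0.71, while Sord and Hspb1 keep their ratios of 2.19 and -1.98.

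By amount of RNA, the stable genes that gained most reads included Cyp2e1, Sord and Dnase1. Cyp2e1, a cytochrome P450 that oxidises small molecules, read 762 and 497 CPM in WT, against 1655 and 1558 for G0APOL1 and 2023 and 2113 for G2APOL1 (1.72 ± 0.24, adjusted p = 0.00112). Sord, which turns sorbitol into fructose, had 378 and 228 CPM in WT, against 1063 and 655 for G0APOL1 and 1417 and 1351 for G2APOL1 (2.19 ± 0.28, adjusted p = 0.000853). Dnase1, the secreted DNA-cutting enzyme of tubules, had 376 and 275 CPM in WT, against 1156 and 702 for G0APOL1 and 1311 and 1225 for G2APOL1 (1.96 ± 0.26, adjusted p = 0.000853). Both transgenic groups lay above WT in each of these. Inmt, an amine methyltransferase, rose (1.75 ± 0.22, adjusted p = 0.000699), the binding protein Igfbp4 (1.49 ± 0.21, adjusted p = 0.00135), and the hydrolase Abhd14b (1.63 ± 0.19, adjusted p = 0.000356); 28.4% of Abhd14b's exon bases overlap another gene. Among the largest losses was Tmsb4x, an actin-binding peptide, with 603 and 630.2 CPM in WT, against 208 and 186 for G0APOL1 and 231 and 219.6 for G2APOL1 (-1.45 ± 0.18, adjusted p = 0.000681). Cd24a, a surface protein of immature epithelium, fell (-1.36 ± 0.19, adjusted p = 0.00103), and the glutathione transferase Gstm2 (-1.56 ± 0.20, adjusted p = 0.000737). The 3 most abundant transcripts with a log2 fold change under 0.1 in size had overlapping groups: Kap, an androgen-regulated kidney protein, at 43467 and 25798 CPM in WT and 38308 and 33619.5 in G2APOL1 (0.05 ± 0.31, adjusted p = 0.945), the plasma glutathione peroxidase Gpx3 at 18803 and 26913 CPM in WT and 24574 and 23938 in G2APOL1 (0.09 ± 0.27, adjusted p = 0.898), and mt-Cytb of the respiratory chain at 16449 and 26545 CPM in WT and 18618 and 21576 in G2APOL1 (-0.10 ± 0.29, adjusted p = 0.89).

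Among the 36 pathway lists, enzymes that break down amino acids had the most rises. The lists were chosen with earlier results of these data known, so their shares and order are descriptions and not tests. Of 56 tested members 19 were higher and 1 was lower, with a median log2 fold change of 0.54 against -0.04 over all genes, and 7 were stable. Afmid, of tryptophan breakdown, had 22.5 and 27.6 CPM in WT, against 66.9 and 77.6 for G0APOL1 and 102 and 100.4 for G2APOL1 (2.01 ± 0.20, adjusted p = 0.00013); 46.6% of its exon bases overlap another gene, and summed with its near-copy the ratio was 1.40. The glycine cleavage protein Gcsh rose (1.25 ± 0.18, adjusted p = 0.0014) and Shmt2, which moves a carbon from serine to folate, (1.22 ± 0.18, adjusted p = 0.00185). Agxt2, an aminotransferase of mitochondria, rose (1.53 ± 0.23, adjusted p = 0.00181). Leucine breakdown had Mccc1 (1.55 ± 0.23, adjusted p = 0.0019) and Ivd (1.52 ± 0.24, adjusted p = 0.00217). Proline breakdown had Aldh4a1 (1.39 ± 0.21, adjusted p = 0.0021), and the propionate route Mut (1.02 ± 0.18, adjusted p = 0.00437). Ass1, which makes the precursor of arginine, went from 1104 and 745 CPM in WT to 2363 and 2266 in G2APOL1 (1.32 ± 0.24, adjusted p = 0.00479). The sole fall was the mitochondrial arginase Arg2, from 33.3 and 14.2 CPM in WT to 5.83 and 8.55 in G2APOL1 (-1.73 ± 0.46, adjusted p = 0.036). Arg2 missed the threshold without WT replicate 1 (0.98 in size, adjusted p = 0.205). Aldh4a1, Mut, Ass1 and Arg2 missed the threshold without G2APOL1 replicate 1 (1.08 to 1.47 in size, adjusted p = 0.0595 to 0.317). Mut, Ass1 and Arg2 missed the threshold without G2APOL1 replicate 2 (0.96 to 2.03 in size, adjusted p = 0.0735 to 0.148).

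Conjugating enzymes moved in both directions, with 11 of 40 higher and 4 lower and a median of 0.61; 5 were stable. Ugt1a9, which attaches glucuronic acid, read 0 and 0 CPM in WT, against 51.7 and 21.9 for G0APOL1 and 13.97 and 15.5 for G2APOL1, and its 308 counts against 0 make the rise at least 93.7-fold over a floor of 3 counts; with limma-voom it missed the threshold (adjusted p = 0.0934). Ugt1a10 read 108 and 151 CPM in WT, against 523 and 324 for G0APOL1 and 558 and 568 for G2APOL1 (2.12 ± 0.25, adjusted p = 0.000442). The Ugt1a genes share their last exons, so reads cannot be assigned with certainty, and the 9 summed gave 345 and 239 CPM in WT, against 697 and 666 for G0APOL1 and 707 and 724 for G2APOL1, a log2 ratio of 1.29. Ugt3a2, which uses other sugars, rose (1.49 ± 0.21, adjusted p = 0.00121). Inmt, the amine methyltransferase, went from 432 and 346 CPM in WT to 1407 and 1204 in G2APOL1. On the lower side stood Gstm2, from 148 and 110.3 CPM in WT to 43.8 and 43.5 in G2APOL1, and the sulfotransferase Sult1a1 (-1.36 ± 0.34, adjusted p = 0.0258). Reductases and dehydrogenases had 12 of 43 higher and 2 lower with a median of 0.16. In the Akr1c family of steroid-converting reductases Akr1c21 rose, from 395 and 280.1 CPM in WT to 1802 and 1644 in G2APOL1 (2.35 ± 0.31, adjusted p = 0.00124), and Akr1c18 fell (-2.57 ± 0.26). Dhrs1, a short-chain dehydrogenase, rose (1.51 ± 0.23, adjusted p = 0.00209). Of 16 genes with symbols in Hsd, 4 were higher and 0 lower, 3 of them stable: Hsd3b3, described above, Hsd3b2 with 91.9 and 73.1 CPM in WT, against 92.4 and 72.1 for G0APOL1 and 233 and 243 for G2APOL1 (1.53 ± 0.20, adjusted p = 0.000773), and Hsd17b12 of fatty acid elongation (1.35 ± 0.20, adjusted p = 0.00176). Sult1a1 and Akr1c21 missed the threshold without WT replicate 2 (1.10 to 2.12 in size, adjusted p = 0.0541 to 0.116). Sult1a1 and Dhrs1 missed the threshold without G2APOL1 replicate 1 (1.33 to 1.38 in size, adjusted p = 0.0521 to 0.225). Sult1a1 missed the threshold without G2APOL1 replicate 2 (1.37 in size, adjusted p = 0.185).

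Peroxisome genes other than the oxidation enzymes were higher for 9 of 33 and lower for 1, with a median of 0.50. Hao2, a hydroxyacid oxidase, rose (1.5 ± 0.27, adjusted p = 0.00558; 2.10 without WT replicate 1), and catalase, Cat, (1.06 ± 0.21, adjusted p = 0.00875). The fall was Pex16, an assembly factor (-1.01 ± 0.21, adjusted p = 0.0112). The citric acid cycle and pyruvate list had 8 of 39 higher and 0 lower with a median of 0.49. Its stable member Sdha, the flavoprotein of succinate dehydrogenase, read 217 and 135 CPM in WT, against 476 and 440.2 for G0APOL1 and 555 and 582 for G2APOL1 (1.69 ± 0.23, adjusted p = 0.00103). Suclg2 of succinyl-CoA ligase rose (1.05 ± 0.19, adjusted p = 0.00466) and malic enzyme Me1 (1.19 ± 0.22, adjusted p = 0.0059). The synthesis of NAD, folates and nucleotides had 8 of 41 higher and 1 lower, among them Nmrk1, which phosphorylates nicotinamide riboside (1.21 ± 0.20, adjusted p = 0.00277). Of 47 genes with symbols in Ndu, of complex I of the respiratory chain, 1 was higher (2.13% called). Of 23 Cox genes 1 was higher and 1 lower (8.70% called, against 8.19% of all genes). Of 17 Atp5 genes 0 were called in either direction with edgeR, against 3 at an unadjusted p under 0.05, 1 with DESeq2 and 0 with limma-voom. Hao2, Cat, Pex16, Suclg2, Me1 and Nmrk1 missed the threshold without G2APOL1 replicate 1 (1.01 to 1.49 in size, adjusted p = 0.0673 to 0.171). Hao2, Cat, Pex16, Suclg2 and Me1 missed the threshold without G2APOL1 replicate 2 (1.00 to 1.53 in size, adjusted p = 0.0561 to 0.153).

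Transporters of the Slc family had 55 of 294 members higher and 12 lower, with a median of 0.26; 6 were stable rises. Slc22a28, of the organic anion carriers, went from 37.6 and 20.4 CPM in WT to 119.9 and 129.7 in G2APOL1 (2.10 ± 0.25, adjusted p = 0.000473), and summed with its near-copy Slc22a30 the ratio was 0.94. The bicarbonate exporter Slc4a4 of the proximal tubule read 111 and 75.2 CPM in WT, against 304 and 367 for G0APOL1 and 271 and 281 for G2APOL1 (1.57 ± 0.22, adjusted p = 0.00105). Slc26a4, the chloride-bicarbonate exchanger pendrin of intercalated cells, read 9.62 and 10.8 CPM in WT, against 50.1 and 42.5 for G0APOL1 and 31.9 and 41.6 for G2APOL1 (1.85 ± 0.26, adjusted p = 0.00133). The prostaglandin carrier Slco3a1 rose (1.37 ± 0.19, adjusted p = 0.00123) and the mitochondrial ornithine carrier Slc25a15 (1.46 ± 0.21, adjusted p = 0.00145), while the glucose carrier Slc2a2 was given above. Falls included Slco4a1 (-2.36 ± 0.37, adjusted p = 0.00251), the peptide carrier Slc15a2 (-0.93 ± 0.18, adjusted p = 0.00822) and the urea transporter Slc14a1 (-2.03 ± 0.47, adjusted p = 0.0192). Among 36 Abc transporters 4 were higher and 1 lower; the export pump Abcc2 read 34.7 and 40.9 CPM in WT, against 167 and 188 for G0APOL1 and 87.8 and 102 for G2APOL1 (1.33 ± 0.19, adjusted p = 0.00143). Brush border enzymes and peptidases had 10 of 32 higher, 0 lower and a median of 0.63, none of them stable. They included alkaline phosphatase Alpl (1.23 ± 0.22, adjusted p = 0.00499) and the folate hydrolase Folh1 (1.60 ± 0.30, adjusted p = 0.0059). Of 27 tight junction genes 1 was higher and 3 were lower, with a median of -0.36. Cldn2, the leaky claudin of the proximal tubule, went from 89.05 and 79.4 CPM in WT to 255 and 226 in G2APOL1 (1.51 ± 0.18, adjusted p = 0.000485), while Cldn8 and Cldn4 of the distal nephron fell (-1.70 ± 0.26, adjusted p = 0.00216 and -1.57 ± 0.33, adjusted p = 0.0123). Potassium and chloride channels had 5 of 36 higher, among them the endosomal exchanger Clcn5 (1.20 ± 0.22, adjusted p = 0.00487), and 2 lower. Cldn4 missed the threshold without WT replicate 1 (1.05 in size, adjusted p = 0.0741). Slco4a1, Slc15a2, Slc14a1, Cldn8, Cldn4, Clcn5, Alpl and Folh1 missed the threshold without G2APOL1 replicate 1 (1.03 to 1.96 in size, adjusted p = 0.0568 to 0.227). Slc15a2, Slc14a1, Cldn4, Clcn5, Alpl and Folh1 missed the threshold without G2APOL1 replicate 2 (0.82 to 2.25 in size, adjusted p = 0.0761 to 0.18).

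Lysosomal genes had 6 of 46 higher and 1 lower with a median of 0.23. Stable rises were the protease Ctsl, with 132 and 129 CPM in WT, against 291 and 267 for G0APOL1 and 454 and 408 for G2APOL1 (1.72 ± 0.18, adjusted p = 0.000187), the sulfatase Arsb (1.61 ± 0.19, adjusted p = 0.000485), and the lipase Lipa (1.45 ± 0.21, adjusted p = 0.00164). Of the exon bases of Ctsl 26.8%, and of Arsb 39.9%, overlap an antisense gene. The fall was Hexa, of ganglioside breakdown (-1.17 ± 0.26, adjusted p = 0.0153). Proton pump subunits had 2 of 21 higher (9.52% called), among them Atp6v0a4 (1.13 ± 0.20, adjusted p = 0.00428). Proteasome and ubiquitin genes had 1 of 40 higher and 2 lower (7.5% called). The rise was the ubiquitin gene Ubb (1.36 ± 0.29, adjusted p = 0.0159). Summed with its near-copy Gm1821, Ubb read 583 and 416 CPM in WT and 938 and 897 in G2APOL1. The summed log2 ratio was 0.88. The falls were the activator subunits Psme1 (-0.79 ± 0.21, adjusted p = 0.0338) and Psme2 (-0.81 ± 0.20, adjusted p = 0.0248). Chaperones were split. The small heat shock protein Hspb1 read 91.4 and 104 CPM in WT, against 25.3 and 27.4 for G0APOL1 and 27.4 and 21.7 for G2APOL1 (-1.99 ± 0.22, adjusted p = 0.000235), and Cryab fell (-1.70 ± 0.26, adjusted p = 0.00209), while the larger Hspa8 rose (0.88 ± 0.21, adjusted p = 0.0238) in a list with 4 of 36 higher and 2 lower. In protein synthesis, 94 genes with symbols in Rpl or Rps were tested, ribosomal proteins among them. Of these 2 were higher and 1 lower (3.19% called, against 8.19% of all genes), all 3 of them genes with copies. The median of the 94 was -0.26, and 20 had a log2 fold change above 0. Of 37 translation factors and tRNA ligases 1 was higher (2.70%). Autophagy had 1 of 32 and cilia and kinesins 1 of 30 called, both higher. Hexa, Ubb and Psme1 missed the threshold without WT replicate 2 (0.57 to 1.15 in size, adjusted p = 0.0631 to 0.201). Hexa, Atp6v0a4, Ubb, Psme1, Psme2, Cryab and Hspa8 missed the threshold without G2APOL1 replicate 1 (0.69 to 1.69 in size, adjusted p = 0.0602 to 0.336). Hexa, Atp6v0a4, Ubb, Psme1, Psme2 and Hspa8 missed the threshold without G2APOL1 replicate 2 (0.72 to 1.38 in size, adjusted p = 0.075 to 0.293). With the replicate block Ubb missed it as well (adjusted p = 0.0835).

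**Figure D5:**
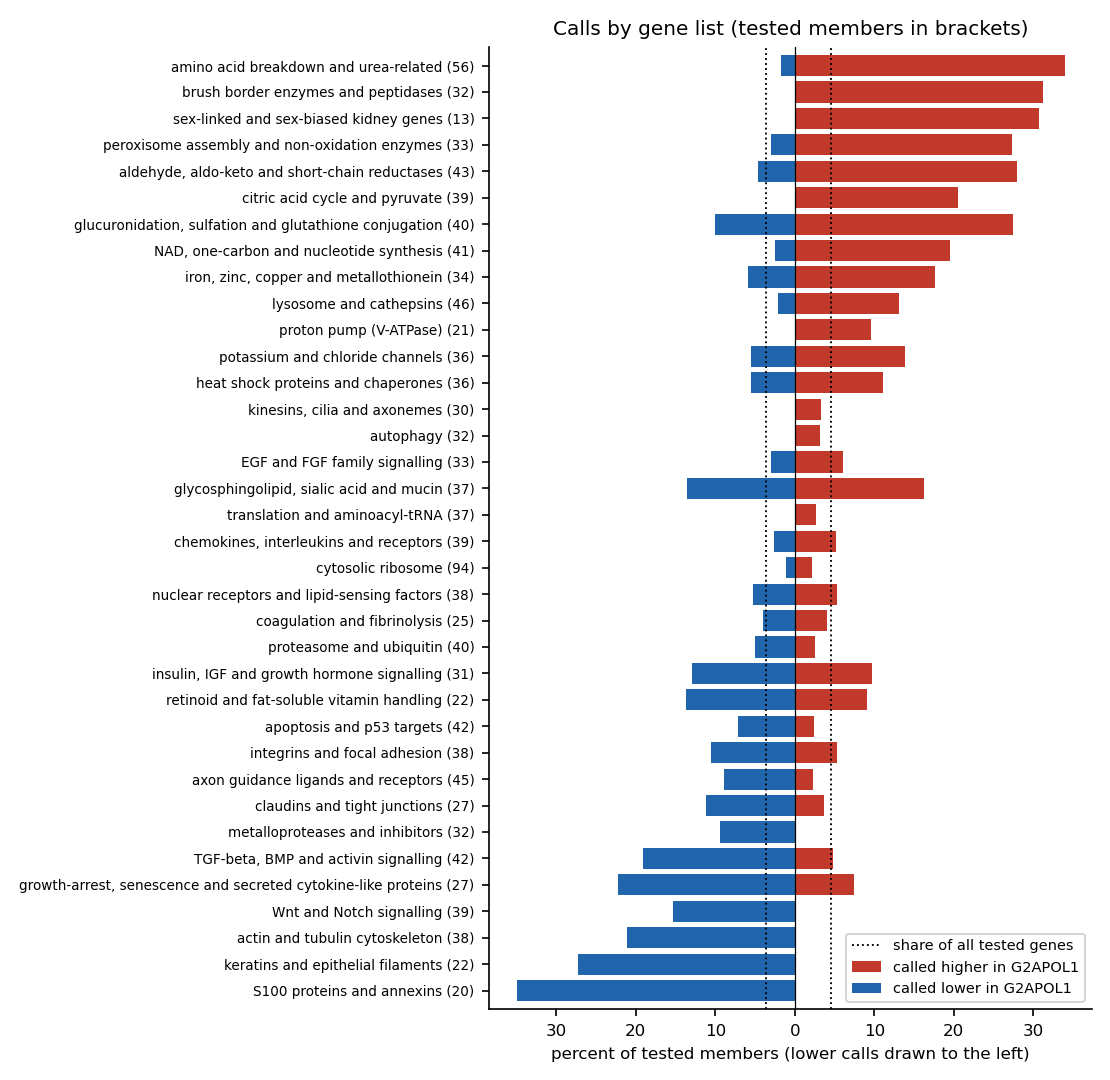
Percent of the tested members of each of 36 gene lists called higher (red, to the right) or lower (blue, to the left) in G2APOL1 against WT, with the number tested in brackets. Dotted lines mark the shares of all tested genes, 4.57% higher and 3.62% lower. Amino acid breakdown has 19 of 56 higher at the top, and S100 proteins and annexins have 7 of 20 lower at the bottom. The lists were chosen with earlier results of these data known.

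Genes of the cytoskeleton and cell surface were called lower more often than higher. Keratins and other epithelial filament genes had 6 of 22 lower and 0 higher with a median of -0.89. Krt18, a keratin of simple epithelium, read 114 and 69.7 CPM in WT, against 24.98 and 20.3 for G0APOL1 and 19.8 and 20.1 for G2APOL1 (-2.21 ± 0.26, adjusted p = 0.000467), and Krt19 fell (-1.69 ± 0.46, adjusted p = 0.0402). The desmosome protein Dsp went from 55.5 and 62.4 CPM in WT to 15.3 and 18.7 in G2APOL1 (-1.80 ± 0.24, adjusted p = 0.00103). S100 proteins and annexins had 7 of 20 lower and 0 higher with a median of -0.83. The membrane-bound annexin Anxa2 read 129.9 and 86.8 CPM in WT, against 37.1 and 40.7 for G0APOL1 and 32.1 and 36.96 for G2APOL1 (-1.65 ± 0.23, adjusted p = 0.00107), S100a6 fell (-2.05 ± 0.30, adjusted p = 0.00176) and S100a4 (-3.83 ± 0.86, adjusted p = 0.0162). Actin and tubulin genes had 8 of 38 lower and 0 higher with a median of -0.42: besides Tmsb4x, given above, the capping protein Capg went from 82.9 and 48.8 CPM in WT to 13.03 and 17.8 in G2APOL1 (-2.10 ± 0.31, adjusted p = 0.0015), and Tmsb10 fell (-1.66 ± 0.30, adjusted p = 0.00661). Integrin and adhesion genes had 4 of 38 lower and 2 higher, with Tes of focal adhesions (-1.97 ± 0.34, adjusted p = 0.0044). Metalloproteases and their inhibitors had 3 of 32 lower and 0 higher (9.375% called, against 8.19% of all genes) with a median of -0.65. Genes with symbols in Col, collagens among them, had 8 of 33 lower and 1 higher with a median of -1.36. Lox, which cross-links collagen, fell (-3.31 ± 0.70, adjusted p = 0.0147). Its log2 fold change was -2.63 without WT replicate 2, -2.51 without G2APOL1 replicate 1 and -4.96 without G2APOL1 replicate 2. Krt19 missed the threshold without WT replicate 1 (1.23 in size, adjusted p = 0.202). S100a4 and Lox missed the threshold without WT replicate 2 (2.63 to 3.35 in size, adjusted p = 0.0832 to 0.146). Krt19 missed the threshold without G0APOL1 replicate 1 (1.68 in size, adjusted p = 0.0503). Krt19, S100a6, S100a4, Lox and Tes missed the threshold without G2APOL1 replicate 1 (1.42 to 3.79 in size, adjusted p = 0.0537 to 0.353). Krt19, S100a4, Tmsb10 and Tes missed the threshold without G2APOL1 replicate 2 (1.34 to 3.85 in size, adjusted p = 0.0909 to 0.171). S100a4 also missed it with limma-voom (adjusted p = 0.0789).

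In signalling, for TGF-beta, BMP and activin 8 of 42 were lower and 2 higher with a median of -0.57. Id2, an inhibitor of helix-loop-helix factors and a BMP target, was a stable rise with 33.1 and 47.9 CPM in WT, against 168 and 117 for G0APOL1 and 144 and 133 for G2APOL1 (1.78 ± 0.23, adjusted p = 0.000839). Ltbp1, which anchors latent TGF-beta to matrix, fell (-1.77 ± 0.30, adjusted p = 0.00388) and the activin antagonist Fst (-1.94 ± 0.36, adjusted p = 0.00572). The related matricellular genes Ccn1 and Ccn2 went opposite ways, Ccn1 rising (1.42 ± 0.34, adjusted p = 0.0228; 2.17 without WT replicate 1), and Ccn2 falling (-1.25 ± 0.30, adjusted p = 0.0283). In the EGF and FGF list 2 of 33 were higher and 1 lower, a share called of 9.09%, near the 8.19% of all genes. Both rises were stable: the growth factor Fgf1 with 35.1 and 27.9 CPM in WT, against 137 and 130.2 for G0APOL1 and 159.5 and 139 for G2APOL1 (2.24 ± 0.20, adjusted p = 4.65e-05), and Kl, the FGF23 co-receptor klotho, with 155 and 176 CPM in WT, against 498 and 511 for G0APOL1 and 502 and 527 for G2APOL1 (1.64 ± 0.19, adjusted p = 0.000352). In each, the WT libraries lay below all 4 transgenic libraries. Wnt and Notch genes had 6 of 39 lower and 0 higher with a median of -0.60. They included Wnt7b of the collecting duct (-1.99 ± 0.36, adjusted p = 0.00497; -1.28 without WT replicate 1), Wnt4 (-3.54 ± 0.69, adjusted p = 0.00798; -2.53 without WT replicate 1 and -4.31 without G2APOL1 replicate 2), and the endothelial receptor Notch4 (-1.58 ± 0.33, adjusted p = 0.0117). Insulin and IGF signalling had 3 of 31 higher and 4 lower. The binding proteins diverged: Igfbp4 went from 342 and 242 CPM in WT to 804 and 834 in G2APOL1, and Igfbp2 from 57.2 and 14.7 CPM in WT to 1.2 and 1.496 in G2APOL1 (-4.73 ± 0.75, adjusted p = 0.00502; -3.44 without WT replicate 1 and -5.40 without WT replicate 2). Nuclear receptors had 2 of 38 higher and 2 lower (10.5% called, also near the share of all genes). Wnt4 missed the threshold without WT replicate 1 (2.53 in size, adjusted p = 0.0921). Ccn1, Ccn2 and Notch4 missed the threshold without WT replicate 2 (0.93 to 1.24 in size, adjusted p = 0.068 to 0.16). Ltbp1, Fst, Ccn1, Ccn2, Wnt7b, Wnt4, Notch4 and Igfbp2 missed the threshold without G2APOL1 replicate 1 (1.32 to 4.57 in size, adjusted p = 0.0673 to 0.194). Ltbp1, Fst, Ccn1, Ccn2, Wnt7b, Notch4 and Igfbp2 missed the threshold without G2APOL1 replicate 2 (1.17 to 4.89 in size, adjusted p = 0.061 to 0.217). With limma-voom Igfbp2 also missed it (adjusted p = 0.0541).

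Over all tested genes the share called was 8.19%. The chemokine, coagulation and apoptosis lists were near it, at 7.69%, 8% and 9.52% called. Higher shares were seen for symbols in Ifi (39.1%), H2- genes (23.8%), glycan and mucin genes (29.7%) and the growth-arrest list (29.6%). Symbols in Ifi had 9 of 23 lower and 0 higher with a median of -1.67, and major histocompatibility genes (H2-) 5 of 21 lower and 0 higher with a median of -1.10. Chemokines, interleukins and receptors had 2 of 39 higher and 1 lower, and 8 of them had a log2 fold change above 0, with a median of -0.62. The scavenging chemokine receptor Ackr3 read 14.97 and 13.7 CPM in WT, against 49.96 and 36.5 for G0APOL1 and 48.4 and 47.3 for G2APOL1 (1.74 ± 0.25, adjusted p = 0.00135). Coagulation had 1 of 25 in each direction: Plat, the tissue plasminogen activator, with 85.3 and 78.9 CPM in WT, against 25.2 and 16.2 for G0APOL1 and 20.1 and 23.7 for G2APOL1 (-1.90 ± 0.25, adjusted p = 0.000853), and factor subunit F13b (1.99 ± 0.38, adjusted p = 0.012; 2.96 without WT replicate 1). Apoptosis and p53 targets had 3 of 42 lower, among them Gadd45a (-1.34 ± 0.28, adjusted p = 0.0115) and the death receptor Fas (-2.38 ± 0.50, adjusted p = 0.0118), and 1 higher. Glycan and mucin genes went both ways, 6 of 37 higher and 5 lower; Galnt11, which starts O-glycans in the proximal tubule, went from 211 and 159.9 CPM in WT to 502 and 478 in G2APOL1 (1.40 ± 0.20, adjusted p = 0.00145), whereas the mucins Muc20 and Muc1 fell (-2.89 ± 0.42 and -2.51 ± 0.39). A list of growth-arrest, senescence and secreted cytokine-like proteins had 6 of 27 lower, with Lgals3bp (-1.81 ± 0.23, adjusted p = 0.000763), and 2 higher. Axon guidance genes had 4 of 45 lower and 1 higher. F13b, Gadd45a and Fas missed the threshold without G2APOL1 replicate 1 (1.65 to 2.81 in size, adjusted p = 0.0651 to 0.0983). F13b, Gadd45a and Fas missed the threshold without G2APOL1 replicate 2 (1.09 to 2.05 in size, adjusted p = 0.0879 to 0.183).

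Several large families were under the 8.19% called over all genes. Zinc finger genes (Zfp) had 4 of 324 higher and 5 lower, and genes with symbols in Rab 1 of 73 higher, which was Rab11fip3. Mitochondrial ribosomal proteins (Mrp) had 2 of 78 higher and 1 lower, and deubiquitinases (Usp) 2 of 45 higher. Trim (38 tested), Adam (25) and Tnf (22) genes had 0 called with edgeR, with medians of -0.05, -0.39 and -0.60. At an unadjusted p under 0.05 they had 8, 4 and 4, with DESeq2 1, 0 and 2, and with limma-voom 0, 0 and 1. Other lists were above the 8.19% of all genes: iron, zinc and copper handling had 6 of 34 higher and 2 lower (23.5% called), and retinoid and vitamin handling 2 of 22 higher and 3 lower (22.7%).

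By position, the share called ran from 4.51% on the X chromosome to 12.1% on chromosome 13 among chromosomes with at least 50 tested genes. Runs of at least 3 neighbouring tested genes called in the same direction numbered 10. On chromosome 8 the carboxylesterases Ces1d, Ces1e and Ces1f were higher, at log2 fold changes of 1.84 ± 0.25, 1.28 ± 0.23 and 0.80 ± 0.22. On chromosome 6 the acetyltransferase-related genes Nat8f3, Nat8f6 and Nat8f5 were higher, at 1.68 ± 0.34, 1.71 ± 0.28 and 1.78 ± 0.34 (2.46 without WT replicate 1 for Nat8f5). On chromosome 4 the ephrin receptor Ephb2 and the 3 chains of complement C1q were lower: Ephb2 (-2.03 ± 0.42), C1qb (-1.25 ± 0.33), C1qc (-1.39 ± 0.38) and C1qa (-1.92 ± 0.35). C1qa and C1qb are also macrophage markers. The other runs held Ugt1a genes, class II histocompatibility genes, Hsd3b2 with Hsd3b3 and Hao2, Ugt3a genes, the Ctsl neighbourhood, S100 genes with Sprr2a2, and Eppk1 with Plec and Parp10. Nat8f3 missed the threshold without WT replicate 1 (1.88 in size, adjusted p = 0.0722). Ces1f, Nat8f3, C1qb and C1qc missed the threshold without WT replicate 2 (0.54 to 1.5 in size, adjusted p = 0.0929 to 0.217). Ces1f and C1qc missed the threshold without G0APOL1 replicate 1 (0.81 to 1.38 in size, adjusted p = 0.0524 to 0.0725). Ces1f missed the threshold without G0APOL1 replicate 2 (0.82 in size, adjusted p = 0.0522). Ces1e, Ces1f, Nat8f3, Nat8f5, C1qa, C1qb, C1qc and Ephb2 missed the threshold without G2APOL1 replicate 1 (0.77 to 1.87 in size, adjusted p = 0.0813 to 0.385). Ces1e, Ces1f, Nat8f3, Nat8f5, C1qa, C1qb and C1qc missed the threshold without G2APOL1 replicate 2 (0.84 to 1.96 in size, adjusted p = 0.053 to 0.233). In a fit of only the 4 libraries compared Ces1f missed it too (adjusted p = 0.068).

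Promoters from RefSeq (GRCm38.p6), 250 bases before to 50 after the start, were at hand for 10753 tested genes, of which 510 were called higher and 378 lower. The HNF1 consensus, whose letters are the capitals of the first pair of windows printed here, was searched on both strands with its middle base free. It was in 3 of the 510 higher promoters (0.588%), in 0 of the 378 lower ones and in 8 of all (0.0744%). The HNF4 motif CAAAGTCCA, on both strands, was in 9 of the 510 (1.76%), in 0 of the 378 and in 58 of all (0.539%). HNF1 and HNF4 factors are known regulators of proximal tubule and liver genes. The AP-1 motif TGANTCA was in 7.65% of the higher, 10.6% of the lower and 6.39% of all promoters, and the E-box CACGTG in 11.2%, 11.1% and 11.5%. In the same order, 6 further motifs were searched on both strands. The glucocorticoid half-palindrome ACANNNTGT was in 8.24%, 8.73% and 5.41%, the cyclic AMP element TGACGTCA in 1.76%, 1.85% and 3.31%, and the antioxidant element TGACNNNGC in 15.3%, 17.5% and 16.97%. The interferon element was in 3.73%, 4.76% and 3.79%, the NF-kB motif in 0.392%, 1.06% and 0.493%, and the PPAR direct repeat in 0.196%, 0% and 0.0651%. These matches are descriptions of letters and not of binding. Windows around the matches, in capitals, are shown for Mia2 on chromosome 12, a secretory cargo protein, Cltrn on the X chromosome, the collectrin that carries amino acid transporters to the brush border, and Agxt2 on chromosome 15.
Mia2: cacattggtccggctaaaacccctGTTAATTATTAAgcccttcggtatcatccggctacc
Cltrn: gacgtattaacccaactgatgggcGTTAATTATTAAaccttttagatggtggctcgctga
Agxt2: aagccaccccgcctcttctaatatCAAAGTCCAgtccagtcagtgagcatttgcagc
Mia2 read 94.4 and 84.5 CPM in WT, against 175 and 143 for G0APOL1 and 173 and 173 for G2APOL1 (0.95 ± 0.18, adjusted p = 0.00718), and Cltrn 771 and 644 CPM in WT, against 1461 and 1311 for G0APOL1 and 1287 and 1211 for G2APOL1 (0.82 ± 0.20, adjusted p = 0.0262). Agxt2 read 26.97 and 19.8 CPM in WT, against 112 and 80.5 for G0APOL1 and 67.5 and 67.9 for G2APOL1 and was stable. Mia2 and Cltrn missed the threshold without G2APOL1 replicate 1 (0.78 to 0.96 in size, adjusted p = 0.118 to 0.3). Mia2 and Cltrn missed the threshold without G2APOL1 replicate 2 (0.86 to 0.95 in size, adjusted p = 0.103 to 0.201).

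Y-linked transcripts were present in all libraries. Ddx3y had between 234 and 273 counts in each of the 6 libraries (-0.20 ± 0.26, adjusted p = 0.713). Xist, the X-inactivation RNA of female cells, had 45 counts in WT replicate 1, 4 in G2APOL1 replicate 2 and 0 in the others. Of 13 sex-linked and sex-biased kidney genes 4 were higher and 0 lower: Cyp2e1, Cyp4b1 of fatty acid hydroxylation (1.65 ± 0.30, adjusted p = 0.00543; 2.28 without WT replicate 1), the organic anion carrier Slco1a1 (1.21 ± 0.21, adjusted p = 0.00445) and the amino acid carrier Slc7a13 (1.01 ± 0.23, adjusted p = 0.019). The androgen-regulated Kap was given above and was not called. Slco1a1, Cyp4b1 and Slc7a13 missed the threshold without G2APOL1 replicate 1 (0.94 to 1.62 in size, adjusted p = 0.0766 to 0.225). Slco1a1, Cyp4b1 and Slc7a13 missed the threshold without G2APOL1 replicate 2 (1.08 to 1.69 in size, adjusted p = 0.0584 to 0.134).

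The direct contrast of G2APOL1 with G0APOL1, which shares the G2APOL1 libraries with the comparison above, called 69 of 14386 genes (0.480%). Among the genes named above, Serpina1d, at 0 counts in G0APOL1, was higher in G2APOL1 (adjusted p = 3.74e-07), and so was Angptl7 (log2 fold change 2.68, adjusted p = 0.0034). Rpl29 (2.46, adjusted p = 2.05e-05), Clec2h (1.80, adjusted p = 0.0167) and Hsd3b2 (1.53, adjusted p = 0.0031) were higher too. Lower values in G2APOL1 than in G0APOL1 were found for Akr1c18 (-1.43, adjusted p = 0.0254), Hsd3b3 (-1.16, adjusted p = 0.0375) and Eif3j2 (-2.93, adjusted p = 0.0016). For others the difference missed the threshold, as for Slc2a2 (0.03, adjusted p = 0.991), Spon1 (-0.09, adjusted p = 0.989), Fgf1 (0.16, adjusted p = 0.971) and Kl (0.03, adjusted p = 0.991). A miss does not show that the transgenes act alike.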

How the data were processed

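Bulk RNA of mouse kidney was sequenced in 6 libraries, 2 per group, all of batch 1 per the labels. The authors deposited expected counts, that is estimated read numbers per gene, unscaled, with 1.39% to 1.55% of values not whole. The submitters' processing notes list Cell Ranger ARC 2.0.2 and mm10 without a role; aligner and counter: not given in the sources used here. Per the labels' protocols the library kit was NEBNext Ultra RNA, and no strand setting is stated. Of the 54146 gene identifiers, 54079 matched GENCODE M21 (GRCm38).

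Expected counts were rounded, filtered with edgeR's filterByExpr by group to 14386 genes, and scaled with TMM; CPM is on that scale. All 6 libraries entered the same model (glmQLFit of edgeR 4.0.16 under R 4.3.3, robust option on; 3 residual degrees of freedom, biological coefficient of variation 0.315), and G2APOL1 minus WT and G2APOL1 minus G0APOL1 were tested two-sided with the quasi-likelihood F test, Benjamini-Hochberg adjusted over all tested genes, at 0.05. Standard errors are the fold change divided by the square root of F. A total of 3247 genes had an unadjusted p under 0.05. Floors of 3 counts and 95% exact intervals cover counting error only.

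The members, gene lists and the rule for named genes were chosen with earlier results of these data known. Named genes are up to 14 largest changes each way among stable genes with at least 5 CPM, up to 10 each way by difference in CPM, up to 4 members each way with the smallest p per list, up to 3 per symbol family of at least 15 tested genes, sex-linked genes, and the 3 most abundant genes that barely changed. Near-identical copies were found with minimap2 2.31 (95% or more identity, covering 50% or more of the shorter transcript and 300 or more bases) and summed. Alternatives were DESeq2 1.42.0 and its size factors, limma-voom (limma 3.58.1), other filters, a test beyond 1.5-fold, the 4 libraries alone, a replicate block, no mitochondrial genes, and leaving out each library. The procedure was tested on simulated data. Some genes that the rule names are not reported here.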

Additional observations from a re-analysis of the deposited data

How the results depend on the processing

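Of 1178 genes called, 657 higher and 521 lower, the count was 1156 with DESeq2 size factors, 1179 with a filter of CPM at least 1 in 2 libraries, 1521 with DESeq2, 1254 with limma-voom, 1127 with only the 4 libraries compared and 1177 without the mitochondrial genome. Larger moves came without a low-count filter (1806 called, 837 lower), from a test beyond 1.5-fold (305, with 148 higher and 157 lower), and from leaving out 1 library (154 to 1681 called, 103 to 1033 higher, 51 to 648 lower). The labels state no pairing by replicate number. The correlation of deviations between G2APOL1 and WT was 0.058, and 1 such value over all genes cannot show whether samples were paired. A fit with the replicate block called 1724, with 1001 higher and 723 lower. No called gene named in the text changed direction under any of these alternatives. Of the 137 called genes named, 33 lost the call in the test beyond 1.5-fold, 4 with limma-voom, 2 with only the 4 libraries compared, 1 with DESeq2 size factors, 1 with the replicate block and 0 with DESeq2, and leaving out 1 library lost 1 to 58. Among named genes that were not called, the sign changed when a library was left out for Gpx3 (-0.15 to 0.37 over these fits), Kap (-0.27 to 0.48, with -0.04 without G2APOL1 replicate 1), mt-Cytb (-0.40 to 0.29, with 0.01 without G2APOL1 replicate 1) and Ddx3y (-0.44 to 0.013). With 2 libraries a group, only large or well-measured changes could be called.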
